A study of Mus musculus with 8 samples.

Results

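The enzymes described here attach glucuronic acid or other sugars (Ugt genes), glutathione (Gst and Mgst genes) or sulfate (Sult genes) to small molecules in the mouse liver. The members are the genes whose symbol begins with Ugt1, Ugt2, Ugt3, Gsta, Gstm, Gstp, Gstt, Gstk, Gsto, Gstz, Mgst or Sult and that have an array probe set annotated to that 1 symbol alone. They number 48 of 19938 genes: 10 Ugt, 19 Gst, 3 Mgst and 16 Sult genes, read by 49 probe sets. Gstm3, the only member with more than 1 probe set, was read through the probe set with the higher mean over all 8 arrays. A further 12 probe sets carry several symbols that include at least 1 of these prefixes, and 17 genes are found only on them. Those genes are not members, and as a result no Ugt1 gene is among the 48.

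The transgenic group is 4 mice whose livers carry constitutively active IKK2 under the LAP promoter, and the control group is 4 mice that the labels call wild type. All mice were 4 weeks old. They shared a mixed background of C57BL/6 and NMRI, backcrossed to C57BL/6 at least 4 times. Each liver was hybridised to its own Affymetrix array, which gave 1 log2 expression value per probe set. Arrays within a group are biological replicates according to the labels, and the sex of the mice is not stated there. IKK2 is the kinase that releases the transcription factor NF-kB from its inhibitors. The LAP promoter is active in hepatocytes, so the transgene is driven there, whereas the RNA is that of the whole organ. In such bulk RNA, fewer cells of a type and less RNA per cell cannot be told apart.

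Conjugation makes lipophilic compounds water-soluble so that they can leave the hepatocyte for bile or blood. Ugt enzymes sit in the endoplasmic reticulum and, apart from the Ugt3 group, use UDP-glucuronic acid. Gst enzymes are mostly cytosolic and use glutathione, and Sult enzymes are cytosolic and use the sulfate donor PAPS. Substrates include bilirubin, bile acids, steroid and thyroid hormones, drugs and reactive products of lipid oxidation. Hepatocytes hold most of this capacity. Many of the genes lie in clusters of near copies, and several differ between male and female mouse liver.

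Ikbkb, the gene of the kinase, read 8.38 to 9.09 in the transgenic arrays and 7.44 to 7.85 in the controls. It rose by 1.00 on the log2 scale (SE 0.18, limma adjusted p = 0.0185), a call that was lost without transgenic replicate 1 (0.0688) or without control replicates 1, 2, 3 or 4 (0.0546, 0.0691, 0.0565 and 0.0566), and when limma's treat asked for more than a 1.2-fold change (0.0729). Whether its probe set reads the transgene was not tested. Arrays correlated with each other at r between 0.976 and 0.996 within the transgenic group and between 0.991 and 0.996 within the controls. Transgenic replicate 2 stood farthest from the controls, down to r = 0.942. In all 8 arrays the female transcript Xist read between 2.95 and 3.39, while Kdm5d of the Y chromosome read 6.70 to 6.84 in transgenic and 6.34 to 7.10 in control arrays. Hepatocyte markers were present in both groups, 0 of 8 passed limma's test in either direction (1 was lower at an unadjusted p under 0.05), and their mean was 12.56 to 12.69 in transgenic and 12.60 to 12.72 in control arrays. Higher genes made up 73.7% of all calls as deposited, 62.6% when the arrays were quantile normalized and 86.4% when all arrays were shifted to the same median.

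Of the 48 conjugation genes, 1 rose, 3 fell and 44 did not pass limma's test at an adjusted p under 0.05. Sult1e1 rose, and Ugt2b37, Sult5a1 and Sult1b1 fell. These are 2.08% higher and 6.25% lower, against 4.67% higher and 1.67% lower among all genes tested. At an unadjusted p under 0.05, 4 members were higher and 15 lower, or 8.33% and 31.2%, against 15.3% and 18.3% of all genes. Readings of the groups did not overlap for 2 members on the higher side and 8 on the lower side (4.17% and 16.7%), against 11.2% of all genes in each direction. By at least 2-fold, 1 member was higher and 6 were lower; among all genes 2.87% and 0.426% differed by that much. The median log2 fold change of the 48 was -0.18, beside -0.07 for all genes. With these counts, the members' share of calls lay near or below the background on the higher side and above it on the lower side. The shares of calls rest on 1 and 3 genes. Members were also brighter than most genes, with a median control level of 8.625 against 5.528 for all genes. All 3 lower calls were among the 35 members above the median gene, and 0 of the 13 dimmer members fell. Shares among genes of like brightness were not computed.

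Among the families, the Ugt genes had the lowest median. Of 10 Ugt genes 1 fell and 0 rose. At an unadjusted p under 0.05, 6 were lower and 0 higher, against 18.3% and 15.3% of all genes. As deposited, 9 had a negative log2 fold change, against 61.6% of all genes, and the median was -0.62. With each array centred on its median 8 were negative and Ugt2b34 stood at 0.05. On that scale the median over all genes was 0.006. Without transgenic replicate 2, 8 Ugt genes were negative and the median was -0.39. Of 19 Gst genes 0 passed limma's test, and the median was -0.18 (-0.11 without transgenic replicate 2). At an unadjusted p under 0.05, 3 Gst genes were higher and 3 lower, 15.8% each, near the 15.3% and 18.3% of all genes. Of 3 Mgst genes 0 passed, with 1 lower at an unadjusted p under 0.05, and the median was 0.01. Of 16 Sult genes 1 rose and 2 fell (1 was higher and 5 lower at an unadjusted p under 0.05), with a median of -0.08. The Ugt and Gst medians stayed negative under all 3 scalings, whereas the Sult median was 0.00 with each array centred on its median and the Mgst median was -0.04 after quantile normalization. Whether the families differ from each other was not tested.

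**Figure D1:**
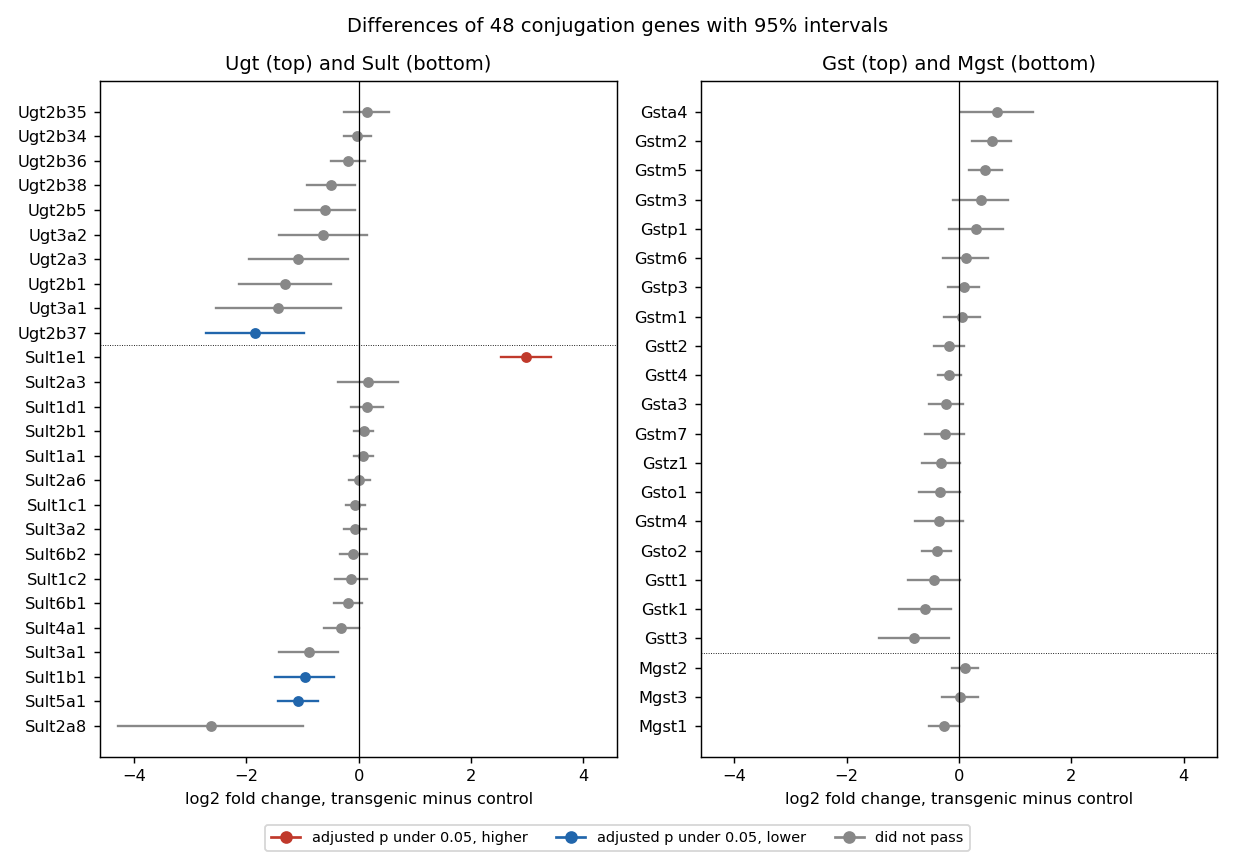
Log2 fold change (transgenic minus control, horizontal axis) of each of the 48 genes with its 95% interval from limma, sorted within family; colour marks the result of the test. Sult1e1 stands alone at 2.97, Ugt2b37, Sult5a1 and Sult1b1 are the 3 lower calls, and the values of Gst and Mgst genes lie between -0.81 and 0.67.

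The counts of calls depended on which arrays were kept. Without transgenic replicate 1 or without any 1 of the 4 controls, Sult5a1 was the 1 member still lower, and 1 member was higher (2 without control replicate 3). Without transgenic replicates 2, 3 or 4, 5, 5 and 9 members were lower and 1, 3 and 2 higher.

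Sult1e1, the estrogen sulfotransferase, which inactivates estrogens by sulfation, was the member with the clearest difference. Its probe set 10531111 read 6.94, 6.15, 6.89 and 6.76 in the 4 transgenic livers, given in replicate order, and 3.30, 4.02, 3.83 and 3.69 in the 4 controls. The lowest transgenic reading, 6.15, stood well above the highest control reading, 4.02. Sult1e1 rose 7.86-fold, which is 2.97 on the log2 scale (SE 0.20, 95% interval 2.53 to 3.42, adjusted p = 0.000206), and kept its call in all 17 alternative settings in which it could be fitted (it was too dim for the one that leaves out the dimmest 50% of probe sets). Control readings lay below every array median (4.88 to 5.08), and no background was measured, so the size of the rise is uncertain. Transgenic replicate 2 gave the lowest of the transgenic readings.

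Sult1b1, which sulfates phenols and thyroid hormones, moved the other way. It read 6.20, 5.42, 6.25 and 6.57 in the transgenic arrays and 7.25, 6.92, 6.73 and 7.38 in the controls. The groups did not overlap, and the lowest value again belonged to transgenic replicate 2. Sult1b1 fell by 0.96 on the log2 scale, 1.94-fold (SE 0.23, adjusted p = 0.0444). The call was lost without transgenic replicate 1 (0.114) or control replicates 1, 2, 3 or 4 (0.101, 0.104, 0.0795 and 0.0897), with arrays centred on their medians (0.0647), with all deposited probe sets tested (0.0758) and when limma's treat asked for more than a 1.2-fold change (0.216).

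Sult1d1, which sulfates catecholamines and other amines with a phenol group, read 10.10, 10.21, 10.49 and 10.32 in the transgenic arrays and 9.83, 10.33, 10.26 and 10.11 in the controls. The groups overlapped, with a log2 fold change of 0.15 (95% interval -0.14 to 0.43, adjusted p = 0.416). In RefSeq's order for the assembly GRCm38.p6, Sult1b1, Sult1d1 and Sult1e1 follow each other with no other protein-coding gene between them, at the end of a block of 13 Ugt2 and Sult1 genes of which 11 are members. The end gene thus rose, the next did not pass and the third fell. Within each array, the value of Sult1e1 minus that of Sult1d1 was -4.06 to -3.16 in transgenic and -6.53 to -6.31 in control livers. For Sult1b1 minus Sult1d1 the range was -4.79 to -3.75 in transgenic and -3.53 to -2.58 in controls. Neither pair of ranges overlapped; the differences between neighbours were picked after the values were seen and were not tested.

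The promoters of these neighbours are shown because genes so close together gave different readings. Each window runs from 250 bases before to 50 bases after the RefSeq start of the gene (build GRCm38.p6), all on the minus strand: chr5:87591562-87591861 for Sult1e1, chr5:87568957-87569256 for Sult1d1 and chr5:87538146-87538445 for the first of 2 windows of Sult1b1. Capitals mark every match, on either strand, to 1 of 6 motifs searched.
Sult1e1: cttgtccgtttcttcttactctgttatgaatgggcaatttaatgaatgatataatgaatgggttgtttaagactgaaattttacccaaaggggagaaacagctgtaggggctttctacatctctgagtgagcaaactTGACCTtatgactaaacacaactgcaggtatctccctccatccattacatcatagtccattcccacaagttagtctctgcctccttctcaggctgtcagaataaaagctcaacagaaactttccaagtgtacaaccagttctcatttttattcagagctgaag
Sult1d1: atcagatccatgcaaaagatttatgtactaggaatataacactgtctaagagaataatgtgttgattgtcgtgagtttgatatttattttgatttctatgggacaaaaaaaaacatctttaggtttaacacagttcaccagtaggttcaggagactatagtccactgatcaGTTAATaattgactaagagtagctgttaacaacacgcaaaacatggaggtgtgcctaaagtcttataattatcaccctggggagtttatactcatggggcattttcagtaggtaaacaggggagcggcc
Sult1b1: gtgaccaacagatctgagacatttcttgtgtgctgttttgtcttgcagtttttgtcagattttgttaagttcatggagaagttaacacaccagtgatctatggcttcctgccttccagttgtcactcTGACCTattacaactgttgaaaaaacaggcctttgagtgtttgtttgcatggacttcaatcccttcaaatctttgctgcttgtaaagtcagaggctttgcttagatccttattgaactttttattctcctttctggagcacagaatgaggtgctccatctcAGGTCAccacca
The motifs were the NF-kB consensus, TTCNNNGAA (bound by STAT factors), TGACNNNGC (the core of the antioxidant response element), TTGCNNAA (C/EBP), GTTAAT (part of the HNF1 site) and AGGTCA (the core that nuclear receptors bind). Sult1d1 holds GTTAAT, while Sult1e1 and the window of Sult1b1 printed here hold AGGTCA, which reads TGACCT where it lies on the opposite strand. That core occurs in 16.3% of all 32851 promoter windows and GTTAAT in 7.1%. Aligned end to end, the window of Sult1e1 was 51.6% identical to that of Sult1d1 and 49% to that of Sult1b1. Over the 44 members with a promoter in the table (56 windows), the NF-kB consensus was found in 3 windows or 5.36%, against 8.46% of all windows. The C/EBP motif was in 12 of the 56 or 21.4%, against 10.8% of all, and the antioxidant core was in 4 or 7.14%, against 12.4%. GTTAAT was in 8 or 14.3%, against 7.1%. The STAT motif was in 4 or 7.14%, against 8.3%, and the nuclear receptor core in 10 or 17.9%, against 16.3%. A match describes letters only, and motifs may overlap each other.

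**Figure D2:**
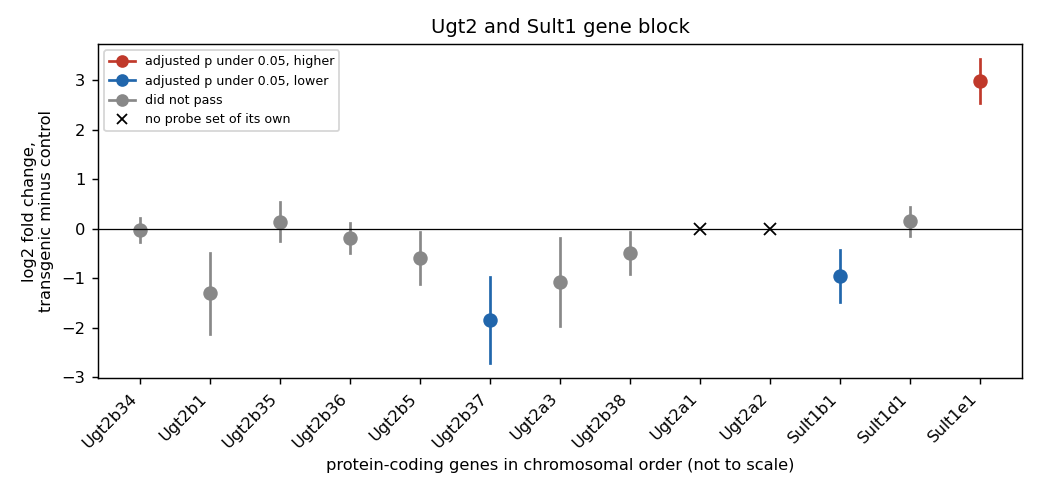
Log2 fold change with 95% interval (vertical axis) of the 11 members of the Ugt2 and Sult1 block, in chromosomal order and not to scale; crosses mark Ugt2a1 and Ugt2a2, which have no probe set of their own and no value here. Sult1e1 at the right end is the only member of the block that rose, and Ugt2b37 and Sult1b1 are the ones that fell.

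Sult5a1, a sulfotransferase whose substrates are little known, read 4.55, 4.61, 5.19 and 5.06 in the transgenic arrays and 6.08, 5.71, 5.83 and 6.12 in the controls. All 4 transgenic values were lower than any control, and transgenic replicates 1 and 2 lay under every array median. It fell by 1.08 on the log2 scale, 2.12-fold (SE 0.16, adjusted p = 0.00953), and kept its call in all 17 settings in which it could be fitted, with adjusted p up to 0.0411. Its promoter (chr8:123158231-123158530, minus strand, GRCm38.p6) is shown beside those above, as the gene with the firmest fall. It holds none of the 6 motifs and has 54.7% G and C, against 40% in the window of Sult1e1.
Sult5a1: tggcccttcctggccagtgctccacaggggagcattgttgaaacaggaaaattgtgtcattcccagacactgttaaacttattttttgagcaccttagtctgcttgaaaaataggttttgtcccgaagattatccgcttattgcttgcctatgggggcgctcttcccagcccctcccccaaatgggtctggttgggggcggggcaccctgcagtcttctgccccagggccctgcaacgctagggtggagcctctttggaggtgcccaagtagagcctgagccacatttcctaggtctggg

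Sult2a8, which sulfates bile acids in mouse liver, had the lowest log2 fold change of all members and did not pass. It read 7.92, 6.03, 9.45 and 10.21 in the transgenic arrays and 11.19, 11.11, 10.57 and 11.27 in the controls. The groups did not overlap, but the transgenic livers were spread widely, from 6.03 to 10.21, with an SD of 1.85 against 0.32 in controls (n = 4 each). Its log2 fold change was -2.63 (SE 0.74, 95% interval -4.28 to -0.98, adjusted p = 0.0601). The gene passed without transgenic replicates 2, 3 or 4 (adjusted p = 0.0348, 0.0469 and 0.0191), and without replicate 2 the log2 fold change was -1.84. Without transgenic replicate 1 the adjusted p was 0.155, and without any 1 control 0.101 to 0.137. Of the other Sult2 genes, Sult2a3, Sult2a6 and the cholesterol sulfotransferase Sult2b1 had log2 fold changes of 0.17, 0.01 and 0.09, with all control means under the array medians.

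Sult3a1, an amine sulfotransferase found mainly in female mouse liver, read 2.76, 2.53, 2.74 and 3.09 in the transgenic arrays and 3.35, 3.09, 4.14 and 4.08 in the controls. Readings did not overlap, yet both groups lay low. The fold change of -0.88 on the log2 scale did not pass (SE 0.23, adjusted p = 0.054). For Sult3a1 the adjusted p was 0.0378 without transgenic replicate 4 and 0.136 without replicate 1. Its neighbour Sult3a2 stood at -0.06. Sult1a1, the main phenol sulfotransferase of liver, gave closely grouped readings. Its values were 10.64, 10.69, 10.72 and 10.78 in the transgenic arrays and 10.57, 10.67, 10.62 and 10.63 in the controls, with overlapping groups and a log2 fold change of 0.08 (95% interval -0.08 to 0.25, adjusted p = 0.416).

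The remaining Sult genes gave low readings or small differences. Sult4a1, an orphan member known from brain, read 3.81, 4.01, 4.27 and 3.99 in the transgenic arrays and 4.11, 4.45, 4.61 and 4.14 in the controls, at -0.31 (adjusted p = 0.15). Transgenic replicate 3 lay inside the control range. Sult6b1 read 2.68, 2.75, 2.86 and 2.82 in the transgenic arrays and 2.75, 3.22, 3.07 and 2.83 in the controls, and its relative Sult6b2 read 3.01, 3.12, 3.22 and 3.37 in the transgenic arrays and 3.13, 3.19, 3.44 and 3.31 in the controls. Both are near the lowest readings of the arrays, and their log2 fold changes were -0.19 and -0.09. Sult1c1 and Sult1c2 stood at -0.06 and -0.13.

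**Figure D3:**
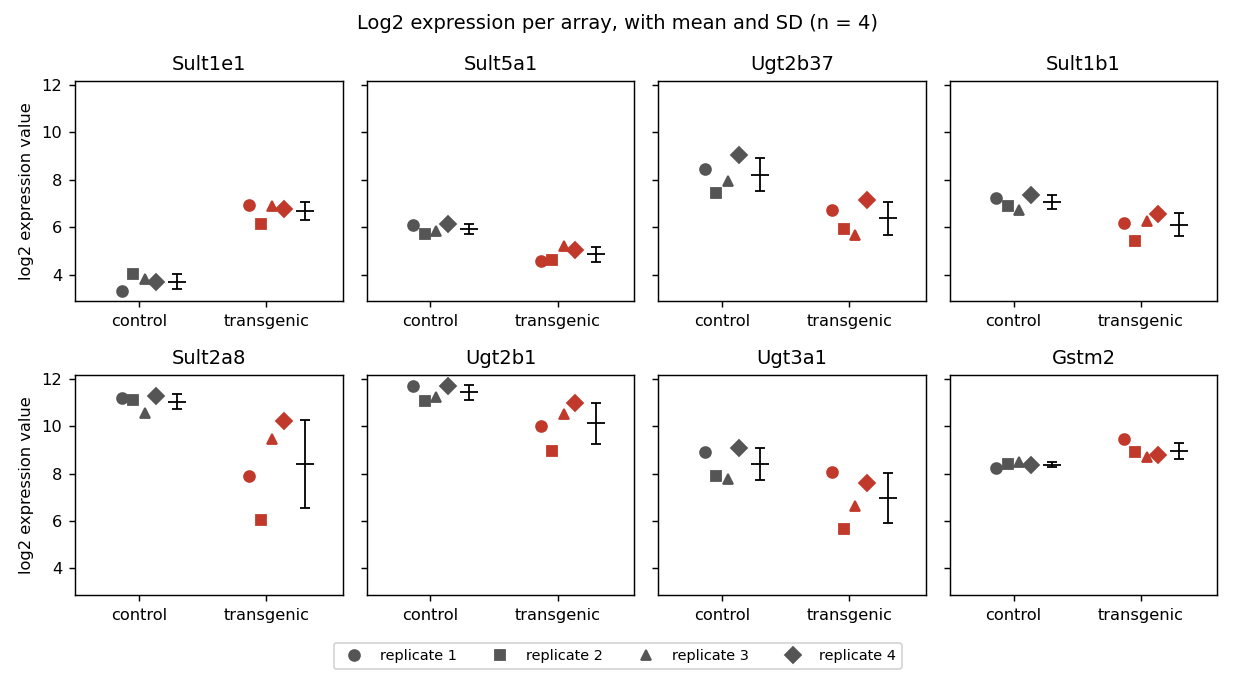
Log2 expression value (vertical axis, shared by all panels) of 8 members in each control and transgenic array; marker shape gives the replicate number, and the bar beside each group is the mean with SD (n = 4). The groups are apart for Sult1e1, Sult5a1, Ugt2b37, Sult1b1, Sult2a8, Ugt2b1 and Gstm2 and overlap for Ugt3a1; transgenic replicate 2 is the lowest transgenic point for Sult1e1, Sult1b1, Sult2a8, Ugt2b1 and Ugt3a1.

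Ugt2b37, a glucuronosyltransferase of the steroid- and drug-conjugating Ugt2b group, was the 1 Ugt gene that fell. Its probe set 10531061 read 6.74, 5.91, 5.68 and 7.17 in the 4 transgenic livers, given in replicate order, and 8.44, 7.44, 7.93 and 9.04 in the 4 controls. The highest transgenic value, that of replicate 4, was below the lowest control, that of replicate 2. Ugt2b37 fell by 1.84 on the log2 scale, 3.58-fold (SE 0.39, 95% interval -2.71 to -0.97, adjusted p = 0.0317). The call was lost without transgenic replicate 1 (0.0796) or control replicates 1, 2, 3 or 4 (0.0856, 0.0522, 0.0764 and 0.0709), with arrays centred on their medians (0.0507), with all deposited probe sets tested (0.0581) and under treat (0.0797).

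Near copies of Ugt2b37 in the same block gave smaller differences. Ugt2b38 read 8.54, 8.03, 8.21 and 8.55 in the transgenic arrays and 9.10, 8.65, 8.39 and 9.17 in the controls, with a log2 difference of -0.50 (adjusted p = 0.11), and Ugt2b5 stood at -0.60 (adjusted p = 0.119), or -0.39 without transgenic replicate 2. The groups overlapped for both. The value of Ugt2b37 minus that of Ugt2b38 in the same array was -2.53 to -1.38 in transgenic and -1.21 to -0.13 in control livers, ranges that did not overlap. Probes of one copy may also read another; this was not tested. The 2 promoters are printed to show how alike these genes are in that window: chr5:87254739-87255038 and chr5:87424154-87424453, both on the minus strand of GRCm38.p6.
Ugt2b37: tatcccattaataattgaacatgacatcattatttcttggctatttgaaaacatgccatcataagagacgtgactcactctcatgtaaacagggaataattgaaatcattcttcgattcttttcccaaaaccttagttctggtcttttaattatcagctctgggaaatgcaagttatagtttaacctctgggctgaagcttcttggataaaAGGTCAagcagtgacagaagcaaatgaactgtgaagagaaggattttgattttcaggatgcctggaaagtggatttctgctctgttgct
Ugt2b38: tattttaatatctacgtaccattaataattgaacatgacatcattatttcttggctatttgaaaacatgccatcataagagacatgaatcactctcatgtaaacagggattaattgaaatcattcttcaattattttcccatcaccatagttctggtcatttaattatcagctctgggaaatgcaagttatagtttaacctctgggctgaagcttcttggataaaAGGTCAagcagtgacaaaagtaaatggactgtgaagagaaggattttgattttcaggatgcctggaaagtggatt
Aligned end to end, they were 87.3% identical, and the capitals in both mark AGGTCA, the nuclear receptor core. Ugt2b5 and Ugt2b38 were 84.2% identical, Ugt2b5 and Ugt2b37 76.5%, and the other pairs of Ugt2 promoters between 48.4% and 63.5%.

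Other Ugt2 genes split into those with negative differences and those near 0. Ugt2b1 read 10.03, 8.97, 10.51 and 10.97 in the transgenic arrays and 11.69, 11.09, 11.22 and 11.71 in the controls. Readings did not overlap, and its log2 fold change was -1.31 (SE 0.37, adjusted p = 0.0601). Without transgenic replicates 2 or 4 the adjusted p was 0.0413 and 0.0211. Without transgenic replicate 1 it was 0.152, and without any 1 control 0.105 to 0.124. Ugt2a3, which acts on bile acids, read 10.22, 8.86, 10.73 and 10.99 in the transgenic arrays and 11.43, 10.90, 11.23 and 11.52 in the controls. Its groups overlapped, at -1.07 (SE 0.39, adjusted p = 0.101). Without transgenic replicate 2 its log2 fold change was -0.63 (adjusted p = 0.0892), and without replicate 4 it was -1.34 (0.0497). In contrast, Ugt2b36 read 11.62, 11.03, 11.49 and 11.59 in the transgenic arrays and 11.63, 11.59, 11.50 and 11.74 in the controls, and its log2 difference was -0.19 (95% interval -0.48 to 0.11). Ugt2b34 and Ugt2b35, at -0.02 and 0.14, had 95% intervals of -0.26 to 0.21 and -0.26 to 0.54. For Ugt2b1 minus its neighbour Ugt2b34, transgenic arrays gave -2.24 to -0.36 and controls -0.37 to 0.32, ranges that touched only at their ends.

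The Ugt3 enzymes transfer sugars other than glucuronic acid. Ugt3a1 read 8.05, 5.67, 6.62 and 7.60 in the transgenic arrays and 8.90, 7.90, 7.78 and 9.06 in the controls. Transgenic replicate 1 lay inside the control range, and the log2 fold change of -1.43 did not pass (SE 0.50, adjusted p = 0.0919). With array weights the adjusted p was 0.0411, and with the replicate number as a block 0.0244. Without control replicate 1 it was 0.165. Ugt3a2 read 10.27, 8.54, 9.97 and 10.35 in the transgenic arrays and 10.61, 10.15, 10.31 and 10.59 in the controls, with a difference of -0.63 (adjusted p = 0.22). Replicate 2 gave the lowest transgenic reading for both, and without it Ugt3a2 stood at -0.22 (adjusted p = 0.348).

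Gst genes showed smaller differences in both directions, none of which passed. At an unadjusted p under 0.05, Gsta4, Gstm2 and Gstm5 were higher and Gstk1, Gsto2 and Gstt3 lower. These shares, 15.8% each, lay near the 15.3% and 18.3% of all genes. Gsta4, which conjugates the lipid peroxidation product 4-hydroxynonenal, read 10.04, 10.17, 8.93 and 9.27 in the transgenic arrays and 8.60, 9.48, 8.85 and 8.80 in the controls. Transgenic replicates 1 and 2 lay above all controls while replicates 3 and 4 did not, and the log2 fold change was 0.67 (SE 0.29, adjusted p = 0.137). Gsta3, the enzyme that detoxifies aflatoxin in mouse liver, read 11.94, 11.61, 12.25 and 12.15 in the transgenic arrays and 12.10, 12.29, 12.20 and 12.28 in the controls. Groups overlapped, with a log2 difference of -0.23 (adjusted p = 0.24).

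The mu class genes lie in 1 uninterrupted block of 7 members. Gstm2 read 9.45, 8.93, 8.69 and 8.78 in the transgenic arrays and 8.24, 8.41, 8.50 and 8.36 in the controls. All transgenic values were above all controls. The log2 difference was 0.58 (SE 0.15) with an adjusted p of 0.054, just above the threshold. Without transgenic replicates 3 or 4 it passed (0.038 and 0.0406). Without transgenic replicates 1 or 2 the adjusted p was 0.0978 and 0.0692, and without any 1 control 0.0932 to 0.122. Gstm5, at the far end of the block, read 7.27, 7.34, 7.05 and 7.21 in the transgenic arrays and 6.74, 6.68, 7.09 and 6.49 in the controls. Only control replicate 3 lay inside the transgenic range, and the log2 fold change was 0.47 (SE 0.13, adjusted p = 0.0581). Without that control the adjusted p was 0.047. Without transgenic replicate 3 it was 0.0483, and without transgenic replicate 1 it was 0.151. Gstm3 read 12.30, 11.78, 11.17 and 11.45 in the transgenic arrays and 11.36, 11.57, 11.13 and 11.09 in the controls, and its log2 difference was 0.38 (adjusted p = 0.237) or 0.17 without transgenic replicate 1. Its second probe set gave 0.52 (SE 0.27, adjusted p = 0.199), the same direction. Gstm1, next to Gstm2, read 12.03, 11.48, 11.49 and 11.61 in the transgenic arrays and 11.70, 11.84, 11.41 and 11.45 in the controls and stood at 0.05 (95% interval -0.27 to 0.38). Gstm6 stood at 0.12, and Gstm7 and Gstm4 at -0.25 and -0.36, so signs differed within the block.

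Theta class genes, which act on small halogenated compounds, number 4 here, and 0 passed limma's test. All 4 had a negative log2 fold change, as did 61.6% of all genes. Gstt3 read 7.20, 7.16, 7.61 and 8.48 in the transgenic arrays and 8.14, 8.61, 8.76 and 8.16 in the controls. Transgenic replicate 4 was inside the control range, and the log2 fold change was -0.81 (SE 0.28, adjusted p = 0.0908; 0.011 without that replicate). With array weights it was -0.44 (adjusted p = 0.314). Gstt1 read 9.64, 9.18, 10.12 and 10.12 in the transgenic arrays and 10.02, 10.38, 10.40 and 10.02 in the controls, and its log2 difference was -0.44 (adjusted p = 0.163) or -0.25 without transgenic replicate 2. Gstt2 and Gstt4 stood at -0.17 and -0.18.

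Gstk1, the kappa class enzyme of mitochondria and peroxisomes, read 10.14, 9.60, 10.55 and 10.67 in the transgenic arrays and 10.68, 10.92, 10.88 and 10.88 in the controls. Readings did not overlap, with a log2 difference of -0.60 (SE 0.21, adjusted p = 0.0891). It was -0.39 without transgenic replicate 2 (adjusted p = 0.114), -0.34 with array weights (0.173) and -0.75 without replicate 4 (0.0415). Gsto1 and Gsto2, omega class enzymes that reduce dehydroascorbate, stood at -0.34 and -0.40. Gsto2 read 4.09, 4.00, 4.35 and 4.21 in the transgenic arrays and 4.58, 4.81, 4.44 and 4.42 in the controls, without overlap but under every array median (adjusted p = 0.0624). Its adjusted p was 0.0451 without transgenic replicate 3 and 0.159 without replicate 1. Gsto1 read 8.94, 8.64, 9.37 and 9.34 in the transgenic arrays and 9.28, 9.45, 9.60 and 9.33 in the controls. Gstz1, which breaks down a product of tyrosine, read 10.82, 10.38, 10.93 and 11.18 in the transgenic arrays and 11.15, 11.20, 11.06 and 11.19 in the controls. Replicate 4 of the transgenic arrays was inside the control range, and the log2 fold change was -0.32 (adjusted p = 0.163). Without transgenic replicate 2, Gsto1 stood at -0.20 and Gstz1 at -0.17. Gstp1, the pi class enzyme that is more abundant in male mouse liver, read 12.38, 12.29, 11.83 and 11.99 in the transgenic arrays and 12.42, 11.72, 11.32 and 11.79 in the controls. Its groups overlapped (log2 fold change 0.31, adjusted p = 0.316), as did those of Gstp3 (0.08).

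The membrane-bound Mgst enzymes protect membranes from lipid peroxides or make leukotriene C4. Mgst1 read 12.35, 11.92, 12.16 and 12.42 in the transgenic arrays and 12.56, 12.51, 12.33 and 12.53 in the controls. Transgenic replicates 1 and 4 lay inside the control range, with a log2 difference of -0.27 (SE 0.12, adjusted p = 0.144) or -0.17 without transgenic replicate 2. Mgst2 and Mgst3 stood at 0.11 and 0.01, with 95% intervals of -0.12 to 0.34 and -0.31 to 0.33.

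Transgenic livers differed among themselves in these genes. The median over the 10 Ugt genes of the value minus the control mean was -0.33, -1.55, -0.54 and -0.27 in transgenic replicates 1 to 4, and between -0.28 and 0.26 in the controls. Replicate 2 thus stood far below the others, and replicate 4 inside the control range. Transgenic replicate 2 gave the lowest transgenic value for 26 of 48 members, among them 8 of 10 Ugt and 12 of 19 Gst genes. For 22 members its value was the lowest of all 8 arrays. The SD was larger among transgenic than control arrays for 8 of 10 Ugt, 13 of 19 Gst, 10 of 16 Sult and 1 of 3 Mgst genes. The matching shares of all genes, for the lowest value and for the SD, were not computed. Over all genes the median of the value minus the control mean was -0.08, -0.11, -0.03 and -0.04 in transgenic replicates 1 to 4. It was thus also lowest in replicate 2.

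Kupffer cell, monocyte, periportal and pericentral hepatocyte markers also stood farthest from the controls in transgenic replicate 2. Of 13 Kupffer cell and macrophage markers 11 rose and 0 fell, with a list mean of 8.96 to 10.29 in transgenic and 7.71 to 8.10 in control arrays, and the highest, 10.29, in transgenic replicate 2. The largest changes were those of the lysozyme Lyz2 and the antibody receptor Fcgr1, at 2.84 and 1.96. Of 7 monocyte markers 5 rose, led by the chemokine receptor Ccr2 at 3.72 and the integrin Itgax at 2.46; the mean was 6.82 to 8.16 against 5.46 to 5.52, again highest in replicate 2. Periportal hepatocyte markers had 1 of 5 lower (Hal, which breaks down histidine, fell by 1.05), and their mean was 11.22 in replicate 2, in a transgenic range of 11.22 to 11.81 and a control range of 11.78 to 11.99. Of 8 pericentral markers 0 passed limma's test (3 were lower at an unadjusted p under 0.05), with a mean of 9.59 in replicate 2 and 9.59 to 10.38 over the transgenic arrays, against 10.26 to 10.50. Among all genes 4.67% rose and 1.67% fell, and 15.3% were higher and 18.3% lower at an unadjusted p under 0.05. No marker of these lists is at 0, since log2 array values have no such reading. Their part in the Ugt, Gst and Sult differences was not tested.

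**Figure D4:**
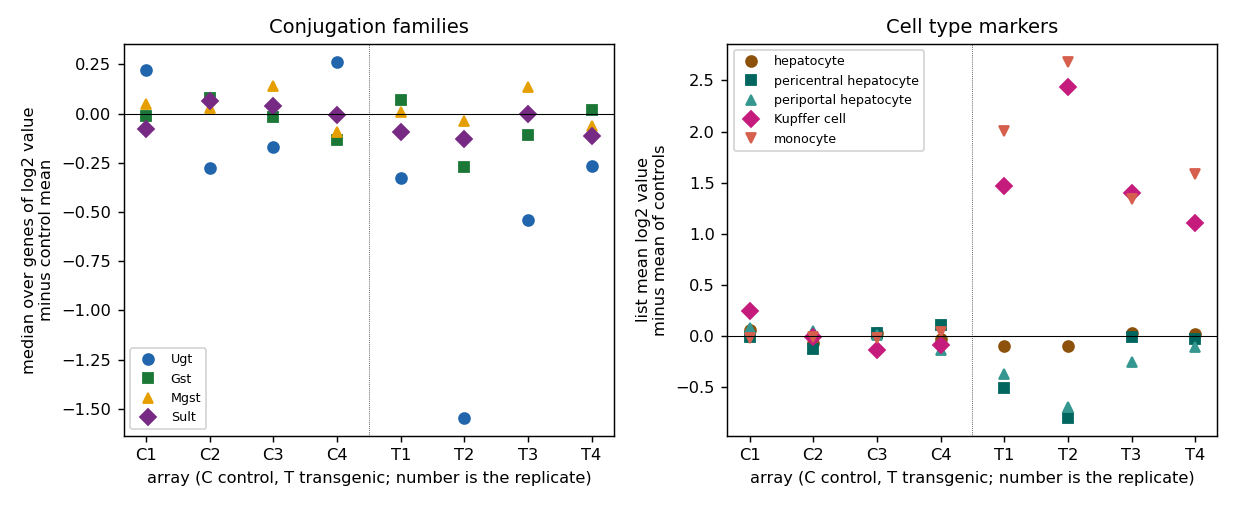
Left, the median over the genes of each family of the log2 value minus that gene's control mean, for each array; right, the mean log2 value of each marker list minus its mean over the controls. Transgenic replicate 2 (T2) has the lowest Ugt point, -1.55, and the highest Kupffer cell and monocyte points. It also has the lowest periportal and pericentral hepatocyte points, while the general hepatocyte markers lie near 0 in all 8 arrays. These general markers are very bright, with a median control level of 12.93 where the highest value of any array is 14.1.

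Fewer markers of other cell types passed (4.67% and 1.67% of all genes were higher and lower, and 15.3% and 18.3% at an unadjusted p under 0.05). Of 10 stellate cell and fibroblast markers 4 rose, the collagen Col1a1 and the growth factor receptor Pdgfra the most (0.71 and 0.64). Of 9 endothelial markers the scavenger receptor Stab1 rose, by 0.80. Among 10 T and NK cell markers 2 rose, Cd3g at 1.53 and Nkg7 at 1.52, and Zap70 fell by 0.42. Bank1 rose by 1.16 among 5 B cell markers. Of 7 bile duct markers and 9 neutrophil markers 0 passed limma's test; at an unadjusted p under 0.05, 1 bile duct marker was higher and 1 lower, and 2 neutrophil markers were higher. Of 6 erythroid markers 2 fell: Car1 fell by 1.62 and Gata1 fell by 0.40. The stellate mean was 8.04 to 8.42 in transgenic and 7.63 to 8.05 in control arrays, the endothelial mean 8.19 to 8.32 and 7.86 to 8.20, and the bile duct mean 5.23 to 5.48 and 5.03 to 5.33. Erythroid means were 6.12 to 6.40 and 6.49 to 6.69, those of T and NK cells 4.85 to 5.66 and 4.47 to 4.61, those of B cells 4.55 to 5.04 and 4.46 to 4.67 and those of neutrophils 4.18 to 4.89 and 4.17 to 4.41. Among transgenic arrays, replicate 2 had the highest bile duct, T and NK cell, B cell and neutrophil means and the lowest erythroid mean. It also had the lowest stellate mean, 8.04, while the endothelial mean was highest in replicate 3, at 8.32.

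The other genes of these pathways supply cofactors, export conjugates or regulate the enzymes. Of 84 such genes, counted once, 4 rose, 4 fell and 76 did not pass (4.67% and 1.67% of all genes were higher and lower), with a median log2 fold change of -0.11 beside -0.07 for all genes. The 4 that rose were Hmox1, Abcc4, Gusb and Gss, and the 4 that fell Nr0b2, Ghr, Glo1 and Ephx2. Without transgenic replicate 1 or any 1 control, 0 of the 84 passed in either direction; without transgenic replicates 2, 3 or 4, 6, 7 and 8 were higher and 3, 8 and 12 lower.

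Glucuronidation draws UDP-glucuronic acid from Ugp2 and Ugdh. These stood at 0.07 and -0.06, and neither passed. Of the 6 genes of this list, 1 rose and 0 fell. It is Gusb, the lysosomal enzyme that removes glucuronic acid again, which read 8.09, 8.49, 7.89 and 7.82 in the transgenic arrays and 7.49, 7.17, 7.54 and 7.19 in the controls. Without overlap between the groups, Gusb rose by 0.72 (SE 0.16, adjusted p = 0.0342). Gusb was highest in transgenic replicate 2, as the macrophage markers were; their part in its rise was not tested. For sulfation, 0 of 8 genes passed limma's test, and 0 had an unadjusted p under 0.05. Bpnt1, which clears the used sulfate donor, had the smallest p (-0.19, adjusted p = 0.229), and the enzymes that make PAPS, Papss1 and Papss2, stood at -0.19 and 0.16.

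In the list of glutathione supply and mercapturates 1 of 14 rose and 1 fell. At an unadjusted p under 0.05, 1 was higher and 6 lower, against 15.3% and 18.3% of all genes. Glutathione synthetase, Gss, read 9.49, 9.08, 9.15 and 9.12 in the transgenic arrays and 8.70, 8.83, 8.73 and 8.81 in the controls and rose by 0.44 (adjusted p = 0.0403). Glo1, which uses glutathione to clear methylglyoxal, fell by 0.58 (adjusted p = 0.0483). Among 18 other conjugation enzymes 1 fell and 0 rose, with a median log2 fold change of -0.42. At an unadjusted p under 0.05, 10 of them were lower and 1 higher, against 18.3% and 15.3% of all genes. Ephx2, a hydrolase of fatty acid epoxides, fell by 0.52 (adjusted p = 0.0433). Of 15 Nrf2 targets only Hmox1, which breaks down haem, passed limma's test, with a rise of 1.36 (adjusted p = 0.0258). The list's median was 0.19. At an unadjusted p under 0.05, 5 of the 15 were higher and 2 lower, against 15.3% and 18.3% of all genes. Values of Hmox1 were 9.05, 9.49, 8.42 and 8.04 in the transgenic arrays and 7.45, 7.54, 7.17 and 7.41 in the controls, highest in transgenic replicate 2.

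Conjugates leave the cell through ABC transporters. Abcc4, a basolateral exporter of sulfated bile acids and steroids, was the 1 of 8 that passed limma's test. At an unadjusted p under 0.05, 5 of the 8 were higher and 1 lower, against 15.3% and 18.3% of all genes. Abcc4 read 7.03, 7.15, 6.83 and 6.24 in the transgenic arrays and 5.71, 6.05, 6.08 and 5.63 in the controls, without overlap. Its rise was 0.95 on the log2 scale (SE 0.19, adjusted p = 0.0294). Of 18 regulators 2 fell and 0 rose. At an unadjusted p under 0.05, 4 regulators were lower and 1 higher, against 18.3% and 15.3% of all genes. Nr0b2 (SHP), a repressor induced by bile acids, fell by 0.91 (adjusted p = 0.0403). Ghr, the growth hormone receptor, fell by 0.75 (adjusted p = 0.0465). The xenobiotic receptors Nr1i3 (CAR) and Nr1i2 (PXR), which switch on many of the enzymes, stood at -1.13 and -0.46 without overlap and did not pass (adjusted p = 0.0624 and 0.054). Nfe2l2, the factor Nrf2, stood at 0.95 (adjusted p = 0.0538).

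**Figure D5:**
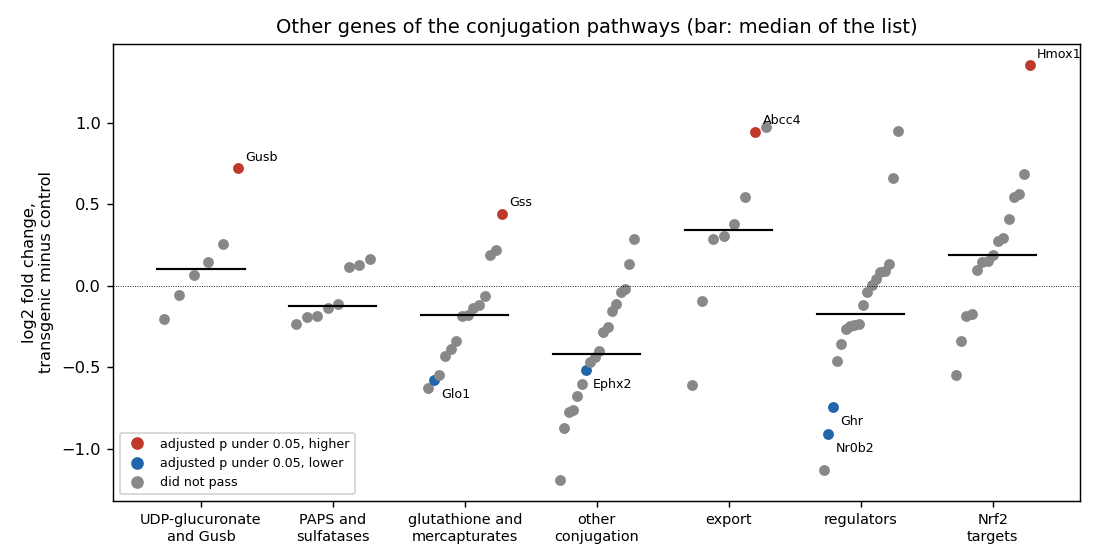
Log2 fold change (vertical axis) of each measured gene of 7 lists around the conjugation enzymes, the genes sorted within each list; horizontal bars are list medians, colour marks the result of limma's test, and called genes are named. Hmox1, Abcc4, Gusb and Gss are higher and Nr0b2, Ghr, Glo1 and Ephx2 lower, and the list of other conjugation enzymes has the lowest median, -0.42.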

How the data were processed

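The authors deposited log2 expression values per probe set, and the submitters' processing notes name Affymetrix Expression Console. Its version and normalization are not given in the sources read. The base was read from the values, which reach 14.1. Of 35556 probe sets, 21789 carry 1 gene symbol, 1621 several and 12146 none. Limma 3.58.1 in R 4.3.3 fitted the group as the only term to the 21789 (prior degrees of freedom 3.77), two-sided, with Benjamini-Hochberg adjustment over all of them and a threshold of 0.05. Each gene was counted through its brightest probe set (19938 genes; 999 had several). No detection p-values were used, so no reading was set against background. Precision is limited by having 4 arrays a group. All 48 members matched RefSeq under the same symbol; 44 had promoters in RefSeq's GRCm38.p6 table. On simulated data for this comparison (19938 genes), limma found 49 of 50 genes raised by 2 on the log2 scale and 49 of 50 lowered by as much. For changes of 1 it found 45 of 50 raised and 39 of 50 lowered genes, and it made 7 false calls. These rates need not hold for members with a wide spread. Sult2a8, at -2.63 with an SD of 1.85 among transgenic arrays, did not pass.

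Per-array values are given for called members, the brightest member in controls and the smallest p of each subfamily, the 5 highest and 5 lowest log2 fold changes, and Sult1e1. Of pathway lists, called genes or the one with the smallest p are named, and of marker lists the 2 largest called changes. Papss1, Papss2, Ugp2, Ugdh, Nr1i2, Nr1i3, Nfe2l2 and Zap70 were added for their roles after their values were seen, as were the per-array values of Sult1d1, Ugt2a3 and Ugt2b38. Members and lists were chosen with earlier results of these data known.

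Alternatives were quantile normalization, centring on array medians, dropping the 30% or 50% dimmest probe sets, averaging the probe sets of a gene, testing all probe sets, trend and robust moderation, the replicate number as a block, array weights, treat, and leaving out each array. A pseudocount did not apply to log2 values.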

Additional observations from a re-analysis of the deposited data

Results flagged for a closer look

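Among 96 groups of 4 readings (48 members in each condition), 1 had a reading far from the other 3 by Dixon's criterion at the 95% level, which chance meets in about 5% of groups. For Sult2a3, transgenic replicate 3 gave 4.32, whereas its 3 fellow replicates lay at 3.34 to 3.37; all of these are under every array median.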

How the results depend on the processing

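Of the 48 members, 36 kept their side of the threshold in every setting fitted, 34 passed in none, and 10 passed in at least 1 setting without passing as deposited; none of the calls turned direction. As deposited, 1 member was called higher and 3 lower, of all genes 932 and 333, and of the 84 pathway genes 4 and 4. Leaving out 1 array at a time gave 1 to 3 members higher and 1 to 9 lower, 192 to 1636 genes higher and 3 to 944 lower, and 0 to 8 pathway genes higher and 0 to 12 lower. Quantile normalization gave 638 genes lower. With arrays centred, 1 member was lower, 618 genes were higher and 97 lower, and 0 pathway genes lower. Testing all probe sets gave 1 member lower, 425 genes higher and 54 lower, and 1 pathway gene higher and 0 lower. Treat against a 1.2-fold change gave 1 member lower, 271 genes higher and 8 lower, and 0 pathway genes in either direction. Members called higher numbered 2 without the dimmest 30% (5 lower) or 50% of probe sets and with trend and robust moderation. With array weights 3 members were higher and 7 lower, and 501 genes lower. The replicate number as a block gave 6 members lower, 174 genes lower, and 2 pathway genes higher and 1 lower. Deviations of same-numbered arrays from their group means correlated at r = 0.243, -0.03, 0.256 and -0.129 for replicates 1 to 4. Differently numbered pairs gave r between -0.264 and 0.175, below the values of replicates 1 and 3. The labels name no pairs, so the main test used none. These values cannot settle whether the animals were paired. The cause of the shifts in these counts between settings was not tested. The smallest changes among low readings, such as those of most Sult2 and Sult6 genes, are limited by an unmeasured background.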
